A study of Mus musculus with 18 samples.

Results

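The 48 genes followed here drive cell division: G1 cyclins, their kinases and inhibitors, the DNA replication machinery, enzymes that supply nucleotides, and the kinases, motors and checkpoint proteins of mitosis. They were taken from a fixed list of symbols. For each gene the probe set with the highest mean over all arrays was used, among probe sets annotated to that gene alone. In this way 47 of the 48 were measured, out of 12393 genes and 22626 probe sets tested. Ccnb1 had no probe set annotated to it alone and is not analysed here.

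The samples were retinas of Balb/cJ mice detached by a subretinal injection of 1 uL. One set received saline and the other saline with 10 uM INS37217, a compound known as an agonist of the P2Y2 receptor. Retinas were taken 2 h, 24 h or 7 d after the injection, which gave 6 groups of 3 Affymetrix GeneChip arrays, 18 in all. Each array was hybridised with an RNA pool of more than 5 retinas. Detachment and injection were shared by all 6 groups, and no undetached or uninjected retina was analysed here, so every change below is between times after injury or between injected solutions.

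A cell enters division when D-type cyclins with Cdk4 inactivate the retinoblastoma protein and release E2F transcription factors, which switch on the genes of origin licensing, the replication fork and nucleotide synthesis. Genes for mitosis follow in G2 and are controlled in good part through elements known as CHR and CCAAT boxes. Neurons of the adult retina have left the cycle, whereas microglia, infiltrating leukocytes, vascular cells, fibroblasts and, to a small extent in mammals, Mueller glia can divide. The probe sets report RNA of the whole retina, and fewer cells of a type cannot be told apart from less RNA per cell.

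Several members moved together between 2 h and 24 h, so the upstream sequences of 4 of them are printed here, with that of Mki67, the proliferation marker Ki-67, for comparison. Each is the 200 bases ending just before the annotated start in RefSeq, build GRCm38.p6, 5′ to 3′ along the gene, which lies on the minus strand in all 5 cases. Capitals mark, on either strand, the E2F letters TTTCCCGC, TTTCGCGC, TTTGCCGC or TTTGGCGC, the CHR letters TTTGAA or TTCGAA, and CCAAT.
Mcm6, chr1:128359706-128359905: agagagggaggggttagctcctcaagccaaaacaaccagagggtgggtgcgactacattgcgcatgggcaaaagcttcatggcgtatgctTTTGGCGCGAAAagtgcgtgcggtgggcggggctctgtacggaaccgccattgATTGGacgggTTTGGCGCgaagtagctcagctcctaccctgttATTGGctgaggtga
Mcm7, chr5:138171884-138172083: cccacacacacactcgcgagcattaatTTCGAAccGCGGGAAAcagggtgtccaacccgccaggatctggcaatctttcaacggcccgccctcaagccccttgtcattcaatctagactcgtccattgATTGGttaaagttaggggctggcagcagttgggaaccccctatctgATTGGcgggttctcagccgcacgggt
Cks1b, chr3:89418292-89418491: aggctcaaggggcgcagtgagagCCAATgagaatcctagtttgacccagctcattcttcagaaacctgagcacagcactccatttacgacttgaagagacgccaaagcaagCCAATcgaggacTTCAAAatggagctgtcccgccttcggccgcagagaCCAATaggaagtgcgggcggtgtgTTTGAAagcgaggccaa
Top2a, chr11:99024190-99024389: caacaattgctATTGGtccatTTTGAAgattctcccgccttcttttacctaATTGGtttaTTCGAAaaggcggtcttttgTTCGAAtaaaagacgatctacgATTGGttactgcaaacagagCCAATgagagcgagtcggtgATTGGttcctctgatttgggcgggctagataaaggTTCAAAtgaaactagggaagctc
Mki67, chr7:135716380-135716579: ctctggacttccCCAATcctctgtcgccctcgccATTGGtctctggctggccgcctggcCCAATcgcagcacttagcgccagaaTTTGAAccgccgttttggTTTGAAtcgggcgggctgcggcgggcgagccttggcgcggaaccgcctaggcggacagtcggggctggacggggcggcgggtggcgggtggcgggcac
The Mcm6 and Mcm7 sequences held E2F letters, with those of Mcm6 starting at -110, -106 and -47 from the start, where the pair at -110 and -106 overlap. Both also held CCAAT, and that of Mcm7 held CHR letters at -173. The Cks1b, Top2a and Mki67 sequences held CHR letters and CCAAT boxes but no E2F letters in the same stretch.
A RefSeq window of 300 bases, from 250 before to 50 after the start, was found for 40 of the 48 listed genes, at the start farthest upstream where several were given. E2F letters occurred in 7 of the 40 windows (17.5%), those of Cdk2, Cdc6, Mcm3, Mcm5, Mcm6, Mcm7 and Cdk1, against 2.27% of 32841 windows over all annotated starts. CHR letters and CCAAT occurred together in 17 of the 40 (42.5%), against 7.52% of all windows. These matches describe letters in a window and are not binding sites shown in these samples.

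The members' mean log2 values on the array ran from 3.76 for Ccne2 to 10.57 for Pcna, on a deposited scale from 2.83 to 14.15. For 12 members, among them Mki67, Aurkb, Birc5, Kif11 and Ect2, the mean was below 5. No detection call was used here, so a flat value at this end of the scale does not show that a gene was silent.

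Array medians lay between 6.67 and 6.76. The first replicate of every group stood apart: within a group it correlated with the others at 0.9591 to 0.981, against 0.9941 to 0.9966 between replicates 2 and 3. Same-numbered arrays deviated together across groups, and replicates 2 and 3 also deviated together. Results are therefore also given from a model with the replicate number as a block. Rod markers, which define the labelled tissue, had a mean log2 level of 12.74 to 13.29 on the 18 arrays. In the labels, the source names of 8 of the 9 INS37217 arrays name saline only, and that of the second saline 7 d array gives 2 h; titles were followed. Over all probe sets that array correlated best with the second INS37217 7 d array (0.9945) and the third saline 7 d array (0.9941). The 3′ minus 5′ difference of the Actb control probe sets, a sign of RNA integrity, averaged 1.04 ± 0.09 log2 units (SD, n = 3) at 2 h with saline and 0.75 ± 0.04 at 2 h with INS37217. At 24 h it was 0.61 ± 0.09 and 0.62 ± 0.02, and its part in the changes from 2 h to 24 h was not tested.

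Between 2 h and 24 h after saline detachment, cyclin D1, the helicase subunits Mcm6 and Mcm7, the large ribonucleotide reductase subunit Rrm1, Cks1b and topoisomerase Top2a rose, and the cyclin-dependent kinase inhibitor Cdkn1a fell. Of the 47 measured members 6 were called higher, where 4.01% of all genes were, and 1 was called lower, where 3.2% were. A call is an adjusted p under 0.05. The median member change was 0.11 log2 units, against -0.05 over all genes, and 31 of 47 members had a difference above 0. With the replicate block 12 members were higher, against 14.2% of all genes, and 2 were lower, against 14%. Without the second saline 2 h array 4 members were called in all, and without the second or the third saline 24 h array 3 were.

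After INS37217 detachment the same interval also gave 6 members higher, against 3.62% of all genes, and 2 lower, against 3.89%. The members called higher in both solutions were Ccnd1, Mcm6, Mcm7, Cks1b and Top2a, which is 5 of 6 from each list, and these 2 time comparisons share no array. Every called difference had the same sign in 3 of 3 replicate numbers. Rrm1 was called higher with saline alone and Rrm2 with INS37217 alone, although the difference between solutions was not called for either. The median member change was 0.13, against -0.06 over all genes. With the block 12 were higher, against 11% of all genes, and 5 lower, against 11.9%. The count fell to 4 in all without INS37217 2 h replicate 2 or 3 or INS37217 24 h replicate 3, and to 3 without the second INS37217 24 h array.

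**Figure D1:**
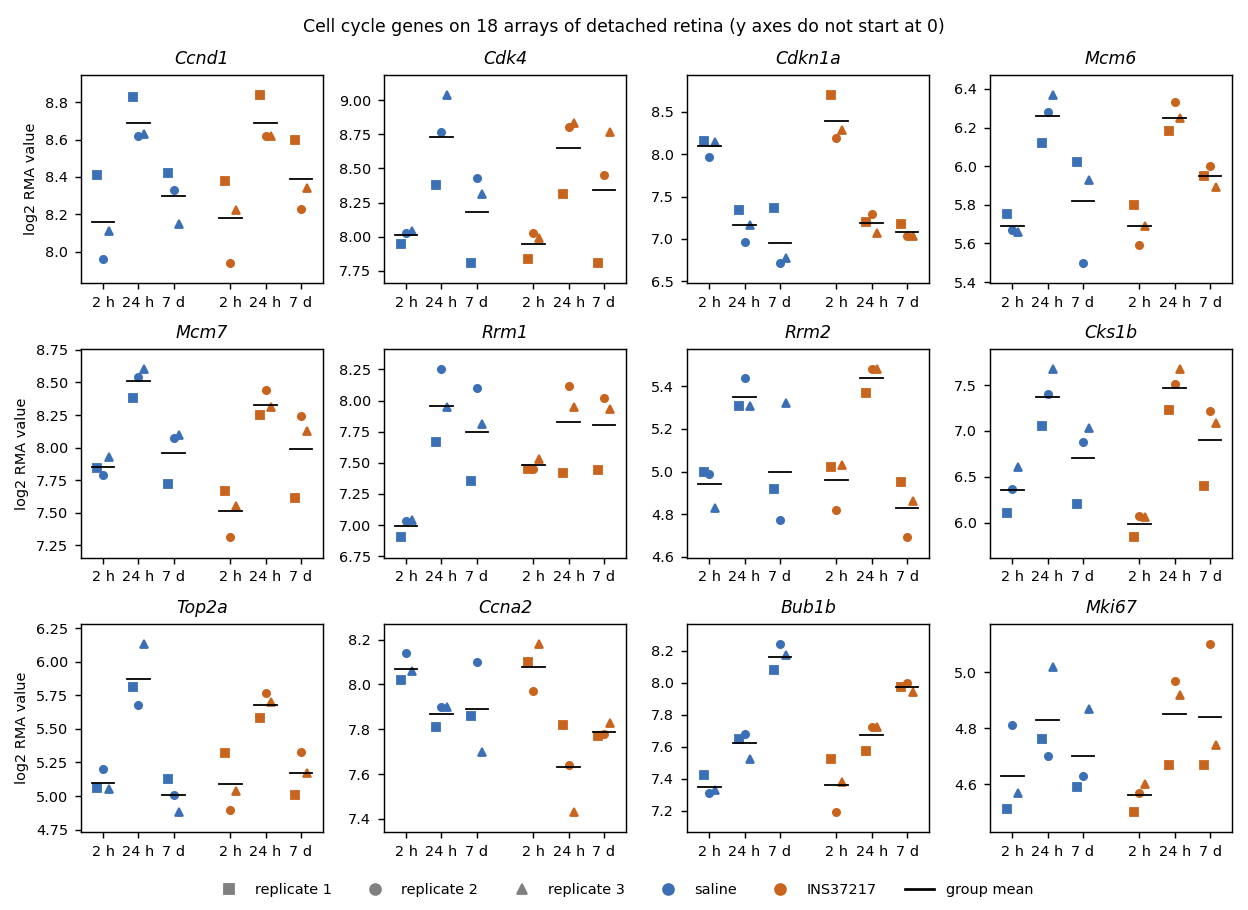
Deposited log2 values of 12 cell cycle genes on each of the 18 arrays (y axis, not starting at 0) by hours or days after injection (x axis); shapes are replicate numbers, colours the injected solution and black bars group means of 3 arrays. Mcm6, Cks1b and Top2a were higher on all 24 h arrays than on all 2 h arrays, Cdkn1a was lower, and Mki67 overlapped between times after saline.

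Of the 9 measured G1 regulators 1, Ccnd1, was higher and 1, Cdkn1a, lower by 24 h in each solution. The shares of all genes were 4.01% higher and 3.2% lower with saline, and 3.62% and 3.89% with INS37217. Ccnd1, cyclin D1, read 8.41, 7.96 and 8.11 at 2 h after saline, 8.83, 8.62 and 8.63 at 24 h, and 8.42, 8.33 and 8.15 at 7 d. With INS37217 it read 8.38, 7.94 and 8.22, then 8.84, 8.62 and 8.62, then 8.6, 8.23 and 8.34. In both solutions every 24 h array lay above every 2 h array. The rise by 24 h was 0.53 log2 units with saline (SE 0.15, 1.45-fold, adjusted p = 0.037) and 0.51 with INS37217 (SE 0.15, 1.43-fold, adjusted p = 0.049). With the block both rises passed (adjusted p = 0.00021 with saline and 0.00039 with INS37217). In the fit without the block neither call was firm. The saline call was lost without saline 2 h replicate 2 or 3 or any saline 24 h array (adjusted p up to 0.17). The INS37217 call was lost in 13 of the 18 single omissions, with adjusted p up to 0.21 without the second INS37217 2 h array. Those 13 were saline 2 h replicate 3, the 3 saline 24 h arrays, saline 7 d replicates 2 and 3, INS37217 2 h replicates 2 and 3, the 3 INS37217 24 h arrays and INS37217 7 d replicates 2 and 3. Quantile normalization of the arrays again also ended both calls (adjusted p = 0.22 and 0.21). A second Ccnd1 probe set gave 0.70 with saline (SE 0.09, adjusted p = 0.00012) and 0.65 with INS37217 (adjusted p = 2e-04), and on it Ccnd1 was lower again at 7 d than at 24 h, by -0.54 (adjusted p = 0.004) and -0.44 (adjusted p = 0.011). The remaining Ccnd1 probe set gave 0.60 and 0.56, not called (adjusted p = 0.16 and 0.24), but passed with the block (adjusted p = 0.0015 and 0.0035).

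Cdk4, the kinase partner of D-type cyclins, read 7.95, 8.03 and 8.04 at 2 h after saline, 8.38, 8.77 and 9.04 at 24 h, and 7.81, 8.43 and 8.31 at 7 d. With INS37217 the values were 7.84, 8.03 and 7.99, then 8.31, 8.80 and 8.83, then 7.81, 8.45 and 8.77. The 24 h arrays lay above the 2 h arrays throughout, and the 7 d arrays spread widely. The differences of 0.72 and 0.69 were not called (SE 0.23, adjusted p = 0.073 and 0.10) but passed with the block (adjusted p = 0.00022 and 0.00042), which also passed the saline decline from 24 h to 7 d of -0.55 (adjusted p = 0.01). Another Cdk4 probe set was called higher by 24 h with saline (0.99, SE 0.26, adjusted p = 0.028) and not with INS37217 (0.80, adjusted p = 0.089, with the block 0.00053). The remaining one was not called in either (0.67 and 0.73, adjusted p = 0.16 and 0.15) but passed in both with the block (adjusted p = 0.0028 and 0.0017).

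Cdkn1a encodes p21, an inhibitor of cyclin-dependent kinases and a p53 target. It read 8.15, 7.97 and 8.14 at 2 h after saline, 7.34, 6.97 and 7.17 at 24 h, and 7.36, 6.72 and 6.78 at 7 d. With INS37217 it read 8.70, 8.19 and 8.28, then 7.20, 7.29 and 7.07, then 7.18, 7.03 and 7.03. All 2 h arrays stood above all later ones. Cdkn1a fell by 24 h by 0.93 log2 units with saline (SE 0.17, 1.90-fold, adjusted p = 0.0025) and fell by 1.20 with INS37217 (SE 0.17, 2.30-fold, adjusted p = 0.00023). At 7 d the difference from 2 h was -1.13 and -1.31 (adjusted p = 0.00064 and 0.00013), and all 4 calls held under every single omission. The size depended on the probe set, since the second one for Cdkn1a gave -0.31 and -0.40 between 24 h and 2 h (adjusted p = 0.14 and 0.051, with the block 0.041 and 0.011).

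Cdkn1b, which encodes the inhibitor p27, read 8.09, 8.33 and 8.30 at 2 h after saline, 8.62, 7.97 and 7.97 at 24 h, and 8.30, 8.05 and 7.88 at 7 d. With INS37217 the values were 8.18, 8.04 and 8.04, then 8.50, 8.08 and 8.19, then 8.50, 8.10 and 7.92. The groups overlapped and no comparison called it. The other cyclin genes of G1 and G1/S, Ccnd2, Ccnd3, Ccne1 and Ccne2, and the kinase gene Cdk2 were not called by 24 h either, with differences from -0.29 to 0.16 for saline and from -0.36 to 0.21 for INS37217. Ccnd3 passed as lower with INS37217 only in the model with the block (-0.36, adjusted p = 0.029). On the probe set used, Ccnd2 had its highest group means at 7 d: after INS37217 it went from 7.31, 7.33 and 7.68 at 2 h to 7.85, 8.21 and 8.04 at 7 d, a difference of 0.59 that passed only with the block (adjusted p = 0.069 without, 0.0014 with).

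**Figure D2:**
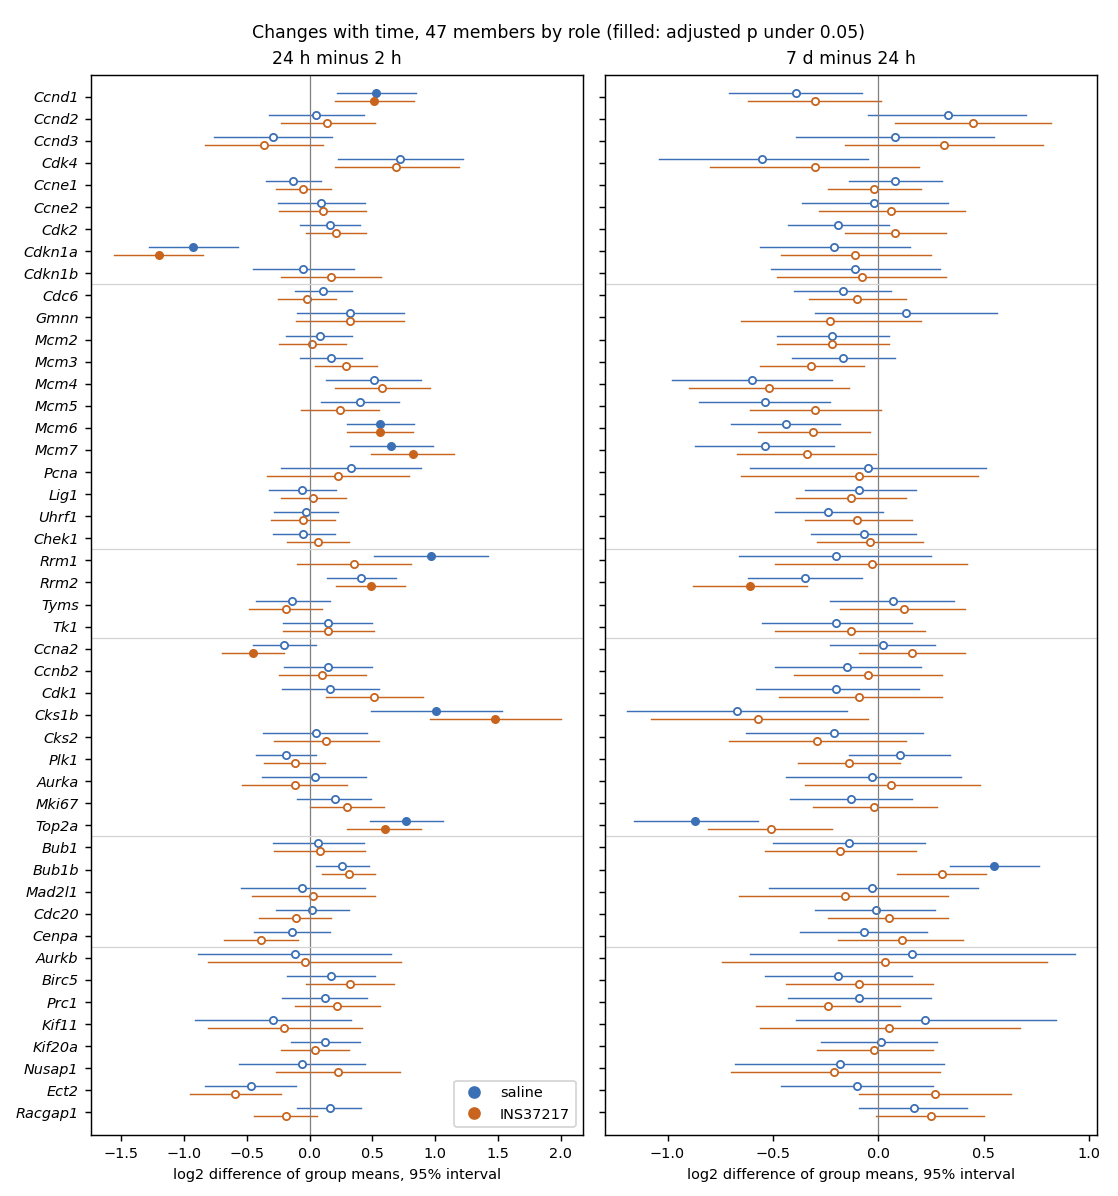
Log2 difference between group means (x axis) for the 47 measured members (y axis, ordered by role), 24 h minus 2 h on the left and 7 d minus 24 h on the right; lines are 95% intervals and filled points have an adjusted p under 0.05. At 24 h filled points lie among G1, replication fork, nucleotide and mitotic entry genes. None lies among the 5 checkpoint and kinetochore genes or the 8 midzone genes, which is near the share of all genes called. That share was 4.01% higher and 3.2% lower with saline, and 3.62% and 3.89% with INS37217.

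Among the 12 members of origin licensing and the replication fork, 2 were called higher by 24 h in each solution and none lower, with medians of 0.25 and 0.23 log2 units. The shares of all genes were 4.01% higher and 3.2% lower with saline, and 3.62% and 3.89% with INS37217. No lower call among 12 genes is near those shares. The Mcm genes encode the subunits of the helicase that opens DNA at the fork. Mcm6 read 5.75, 5.67 and 5.66 at 2 h after saline, 6.12, 6.28 and 6.37 at 24 h, and 6.02, 5.50 and 5.93 at 7 d. With INS37217 it read 5.80, 5.59 and 5.69, then 6.18, 6.33 and 6.25, then 5.95, 6.0 and 5.89. All 6 of the 24 h arrays were above the other 12. Mcm6 rose by 0.56 in each solution (SE 0.12, 1.48-fold and 1.47-fold, adjusted p = 0.0099 and 0.011). The saline call was lost without the third saline 24 h array (adjusted p = 0.057), and the INS37217 call without the second INS37217 2 h array (0.052) or 24 h array (0.056). A second Mcm6 probe set, with a mean level of 3.51, was called higher with saline (0.34, adjusted p = 0.038). With INS37217 it gave 0.24 and passed in neither model (adjusted p = 0.19, with the block 0.078).

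Mcm7 read 7.84, 7.79 and 7.93 at 2 h after saline, 8.38, 8.54 and 8.6 at 24 h, and 7.72, 8.07 and 8.10 at 7 d. With INS37217 the values were 7.67, 7.31 and 7.55, then 8.25, 8.44 and 8.31, then 7.61, 8.24 and 8.13. Again the 24 h arrays lay above the 7 d arrays and the 2 h arrays of both solutions. The rise was 0.65 with saline (SE 0.16, 1.57-fold, adjusted p = 0.017) and 0.82 with INS37217 (SE 0.16, 1.77-fold, adjusted p = 0.0033). The saline call was lost without saline 2 h replicate 2 (adjusted p = 0.07), saline 24 h replicate 2 (0.065) or replicate 3 (0.078), whereas the INS37217 call held under every omission. The 3 other Mcm7 probe sets gave smaller or less certain differences, from 0.13 to 0.72 with saline, none called, and from 0.40 to 0.69 with INS37217, 1 called. With the block, the probe sets giving 0.72 and 0.69 (adjusted p = 0.00013 and 0.00024) and 0.43 and 0.40 (0.0025 and 0.0054) passed in both solutions.

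Mcm4 read 7.26, 7.41 and 7.42 at 2 h after saline and 7.41, 8.01 and 8.20 at 24 h, and 7.44, 7.14 and 6.98 against 7.83, 7.78 and 7.68 with INS37217. Its differences of 0.51 and 0.58 passed with the block only (adjusted p = 0.015 and 0.0084, against 0.11 and 0.073), while its second probe set was called in both solutions (0.66, adjusted p = 0.04, and 0.73, adjusted p = 0.024). Mcm5 passed with the block after saline (0.40, adjusted p = 0.027) and Mcm3 after INS37217 (0.29, adjusted p = 0.04). Pcna, the sliding clamp of the polymerases, differed by 0.33 after saline, with 9.96, 10.54 and 10.57 at 2 h against 10.33, 10.91 and 10.82 at 24 h, and passed with the block (adjusted p = 0.013); replicate 1 was the lowest array at each time. The other fork genes were not called in either model by 24 h: Mcm2, the loading factor Cdc6, the licensing inhibitor Gmnn, the ligase gene Lig1, the methylation maintenance factor Uhrf1 and the checkpoint kinase gene Chek1.

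Ribonucleotide reductase makes the deoxynucleotides for replication, and its 2 subunit genes were the members of the nucleotide group that moved. Rrm1 read 6.90, 7.03 and 7.04 at 2 h after saline, 7.67, 8.25 and 7.95 at 24 h, and 7.35, 8.10 and 7.81 at 7 d. With INS37217 it read 7.45, 7.45 and 7.53, then 7.42, 8.12 and 7.95, then 7.44, 8.02 and 7.93. The 3 saline 2 h arrays were thus the lowest of the 18, and the INS37217 2 h arrays overlapped their 24 h group. Rrm1 rose by 0.97 with saline (SE 0.21, 1.95-fold, adjusted p = 0.011), a call lost without the second saline 24 h array (0.82, adjusted p = 0.065), and differed by 0.35 with INS37217 (adjusted p = 0.48, with the block 0.042). The drug-by-time difference of -0.61 was not called (95% interval -1.26 to 0.03, unadjusted p = 0.061). The other Rrm1 probe set gave 0.12 and 0.17 and was not called.

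Rrm2, the small subunit, read 5.00, 4.99 and 4.83 at 2 h after saline, 5.31, 5.44 and 5.31 at 24 h, and 4.92, 4.77 and 5.32 at 7 d. With INS37217 the values were 5.02, 4.82 and 5.03, then 5.37, 5.48 and 5.48, then 4.95, 4.69 and 4.86. The 24 h arrays lay above the 2 h arrays in both solutions, and with INS37217 also above all 7 d arrays. The 24 h difference was 0.41 with saline (adjusted p = 0.066, with the block 0.011) and 0.49 with INS37217 (SE 0.13, adjusted p = 0.033), which was lost without any 1 of the 6 INS37217 2 h and 24 h arrays (adjusted p 0.051 to 0.13). Both other Rrm2 probe sets were called in both solutions, one with 1.13 (adjusted p = 0.0011) and 1.17 (0.00072) and one with 0.50 (0.0054) and 0.54 (0.0031). The thymidine-supplying enzyme genes Tyms and Tk1 were not called (-0.19 to 0.15).

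Of the 9 measured genes of mitotic entry and chromosome condensation, Cks1b and Top2a were called higher by 24 h in both solutions, where 4.01% of all genes were with saline and 3.62% with INS37217. Cks1b encodes a small adaptor bound by cyclin-dependent kinases. It read 6.11, 6.37 and 6.61 at 2 h after saline, 7.05, 7.40 and 7.67 at 24 h, and 6.20, 6.88 and 7.03 at 7 d. After INS37217 it read 5.84, 6.07 and 6.06, then 7.23, 7.51 and 7.67, then 6.40, 7.22 and 7.09. In each solution all 24 h arrays were above all 2 h and all 7 d arrays. Cks1b rose 2.01-fold with saline (1.01 log2 units, SE 0.24, adjusted p = 0.017) and 2.79-fold with INS37217 (1.48, SE 0.24, adjusted p = 0.001). The saline call was lost without saline 2 h replicate 1 (adjusted p = 0.075) or 2 (0.059) or saline 24 h replicate 2 (0.064) or 3 (0.099). The drug-by-time difference was 0.47 and was not called (95% interval -0.26 to 1.20). The second Cks1b probe set gave 0.26 and 0.15, neither called.

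Top2a, the topoisomerase that untangles replicated chromosomes, read 5.06, 5.20 and 5.05 at 2 h after saline, 5.81, 5.68 and 6.13 at 24 h, and 5.13, 5.01 and 4.88 at 7 d. With INS37217 the values were 5.32, 4.90 and 5.04, then 5.58, 5.77 and 5.70, then 5.01, 5.33 and 5.17. The 6 arrays at 24 h were the highest of the 18. Top2a rose by 0.77 with saline (SE 0.14, 1.71-fold, adjusted p = 0.0022), which held under every omission, and by 0.60 with INS37217 (SE 0.14, 1.51-fold, adjusted p = 0.014). The INS37217 call was lost without INS37217 2 h replicate 2 (adjusted p = 0.073) or 3 (0.059) or INS37217 24 h replicate 2 (0.07) or 3 (0.054). Another Top2a probe set went the other way, by -0.30 and -0.21, and was not called (adjusted p = 0.18 and 0.46). On the mean of both probe sets the Top2a differences were 0.24 and 0.19 and were not called.

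Mki67, the gene of the proliferation antigen Ki-67, read 4.51, 4.81 and 4.57 at 2 h after saline, 4.76, 4.70 and 5.02 at 24 h, and 4.59, 4.63 and 4.87 at 7 d. With INS37217 it read 4.50, 4.57 and 4.6, then 4.67, 4.97 and 4.92, then 4.67, 5.10 and 4.74. The saline groups overlapped, and the INS37217 24 h arrays lay narrowly above those at 2 h. The differences of 0.20 and 0.30 were not called (adjusted p = 0.49 and 0.30, with the block 0.19 and 0.063). Cdk1, the mitotic kinase, differed by 0.16 with saline and 0.51 with INS37217, the second passing with the block only (adjusted p = 0.12 without, 0.0043 with).

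Ccna2, cyclin A2 of S phase and G2, went against Top2a and Cks1b. It read 8.02, 8.14 and 8.06 at 2 h after saline, 7.81, 7.90 and 7.90 at 24 h, and 7.86, 8.10 and 7.70 at 7 d. With INS37217 the values were 8.10, 7.97 and 8.18, then 7.82, 7.64 and 7.43, then 7.77, 7.78 and 7.83. Both solutions showed 24 h arrays below 2 h arrays. Ccna2 fell with INS37217 by 0.45 (SE 0.12, 1.37-fold, adjusted p = 0.028) and differed by -0.20 with saline (adjusted p = 0.38). The INS37217 call was lost without INS37217 2 h replicate 1 (adjusted p = 0.083) or 3 (0.12) or INS37217 24 h replicate 2 (0.085) or 3 (0.16). The second Ccna2 probe set gave 0.31 with saline, in the other direction (adjusted p = 0.09, with the block 0.016), so the direction with saline depended on the probe set. With INS37217 it gave -0.15, the same direction but smaller and not called (adjusted p = 0.58). Ccnb2, Cks2, Plk1 and Aurka, which act at mitotic entry, were not called in either model.

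The 5 spindle checkpoint and kinetochore genes had no call by 24 h in either solution, and their medians were 0.02 and 0.03; 1 with saline and 2 with INS37217 had an unadjusted p under 0.05 by limma. With the block Bub1b was higher by 24 h in both solutions (0.26, adjusted p = 0.049, and 0.31, adjusted p = 0.029). The 8 midzone and cytokinesis genes had none either, with medians of 0.03 and 0.00; in each solution 1 of the 8 had an unadjusted p under 0.05 by limma. That gene was Ect2, a cytokinesis gene, which differed by -0.47 and -0.59 and passed as lower with the block (adjusted p = 0.008 and 0.0017). Aurkb and Birc5 of the chromosomal passenger complex, the microtubule bundlers Prc1 and Nusap1, the motors Kif11 and Kif20a and the cytokinesis gene Racgap1 did not pass in either model by 24 h. With INS37217 the centromeric histone gene Cenpa was lower by -0.39 with the block only (adjusted p = 0.011). By 24 h 4.01% of all genes were called higher and 3.2% lower with saline, and 3.62% and 3.89% with INS37217. No call among 5 or 8 genes is near those shares.

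From 24 h to 7 d after saline, Top2a fell and Bub1b rose, which is 1 member lower, against 1.17% of all genes, and 1 higher, against 0.46%. The median member change was -0.13, against 0.02 over all genes, and 12 of 47 differences were above 0. With the block 8 were lower, against 4.99% of all genes, and 1 higher, against 3.09%. The 8 were Ccnd1, Cdk4, Cks1b, Mcm4, Mcm5, Mcm6, Mcm7 and Top2a, with differences from -0.87 to -0.39. This comparison shares its 24 h arrays with the one before it, so a high 24 h value enters both. Without the third saline 24 h array 1 member was called in all, and without the saline 7 d array with the conflicting source name 2 were.

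With INS37217, Rrm2 was the 1 member lower from 24 h to 7 d, against 1.46% of all genes, and none was higher by limma, against 1.08%; 9 members had an unadjusted p under 0.05. The median was -0.09, against 0.00 over all genes, and all 12 fork genes had a difference below 0, from -0.52 to -0.04. With the block Cks1b, Mcm4, Rrm2 and Top2a were lower (4.45% of all genes) and Ccnd2 was higher (4.08%). Rrm2 fell by 0.61 (SE 0.13, 1.53-fold, adjusted p = 0.016), a call lost without replicate 2 or 3 of INS37217 at 24 h or 7 d (adjusted p 0.058 to 0.096), which left no member called. Top2a fell by 0.87 after saline (SE 0.14, 1.82-fold, adjusted p = 0.0027; on the mean of both probe sets -0.30, adjusted p = 0.14) and differed by -0.51 after INS37217 (adjusted p = 0.075, with the block 0.013).

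Bub1b, which encodes the checkpoint protein BubR1, was highest at 7 d. It read 7.42, 7.31 and 7.33 at 2 h after saline, 7.65, 7.68 and 7.52 at 24 h, and 8.08, 8.24 and 8.17 at 7 d. After INS37217 it read 7.52, 7.19 and 7.38, then 7.57, 7.72 and 7.72, then 7.97, 8.0 and 7.94. In both solutions the 3 times did not overlap. The step from 24 h to 7 d was 0.55 with saline (SE 0.10, 1.46-fold, adjusted p = 0.0084), lost without the third saline 24 h array (0.50, adjusted p = 0.06), and 0.30 with INS37217 (adjusted p = 0.20). Bub1b has a single probe set on the array, so no second one can be set beside it. Its partners in the checkpoint, Bub1 and Mad2l1, and the anaphase activator Cdc20 were not called at any time.

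At 7 d against 2 h, 1 member was higher with saline, against 2.21% of all genes, and 1 lower, against 2.92%; with INS37217 2 were higher, against 2.9%, and 1 lower, against 2.75%. Bub1b was higher in both solutions (0.81, adjusted p = 0.00011, and 0.61, adjusted p = 0.0013, holding under every omission) and Cdkn1a was lower in both. Cks1b was higher with INS37217 alone (0.91, SE 0.24, adjusted p = 0.041), a call lost in 9 of 18 omissions: saline 2 h replicate 2, saline 24 h replicate 2, any INS37217 2 h array, and replicates 2 and 3 of INS37217 at 24 h and 7 d (adjusted p up to 0.19). With the block 7 were higher (10.5% of all genes) and 2 lower (10.5%) after saline, and 7 higher (8.77%) and 1 lower (9.83%) after INS37217. Those that passed with the block only were, after saline, Ccnd2 (0.38), Cks1b (0.34), Gmnn (0.45), Pcna (0.28), Racgap1 (0.32) and Rrm1 (0.76) as higher and Ect2 (-0.57) as lower. After INS37217 they were Ccnd2 (0.59), Cdk1 (0.43), Cdk2 (0.29), Cdk4 (0.39) and Mcm7 (0.48), all higher. The saline total went from 2 to 5 without the first saline 7 d array and to 4 without the first INS37217 24 h array. Member medians of -0.03 and 0.02 stood beside -0.02 and -0.05 over all genes.

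No member was called between INS37217 and saline at the same time by limma. At 2 h 0.121% of all genes were called, at 24 h 0.137% and at 7 d 0.137%. An unadjusted p under 0.05 was given for 2 members at 2 h, Rrm1 and Mcm7, and for none at 24 h or 7 d. Median member differences were -0.01, 0.00 and 0.03, and single differences ran from -0.37 to 0.49 at 2 h, from -0.32 to 0.22 at 24 h and from -0.29 to 0.33 at 7 d. The 95% intervals of single members reached from -0.89 to 0.94 at 2 h, from -0.70 to 0.85 at 24 h and from -0.82 to 0.72 at 7 d, so changes of that size in one gene are not excluded.

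**Figure D3:**
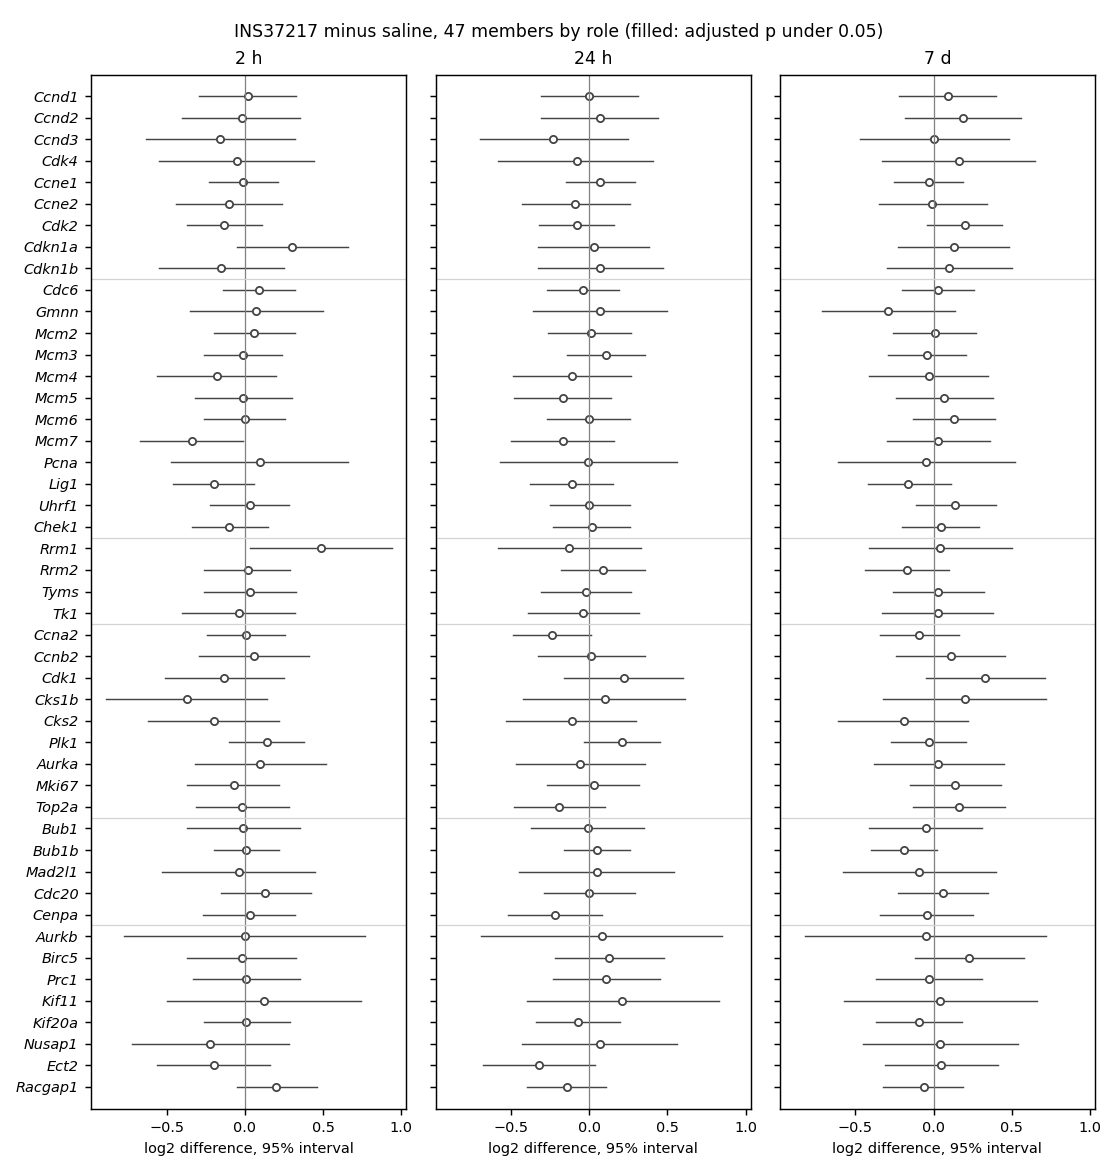
Log2 difference INS37217 minus saline (x axis) for the 47 measured members (y axis, ordered by role) at 2 h, 24 h and 7 d; points are differences of means of 3 arrays and lines 95% intervals. No point is filled, which means that none had an adjusted p under 0.05.

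With the replicate block 1 member passed at 2 h, Rrm1, where 1.07% of all genes did. On the probe set used it was 0.49 higher with INS37217 (SE 0.21, 95% interval 0.03 to 0.94, adjusted p = 1, with the block 0.044). Its 2 h groups on that probe set, given above, did not overlap. The other Rrm1 probe set leaned the opposite way at 2 h: its saline arrays averaged 7.17 and its INS37217 arrays 7.05, and they overlapped. The higher Rrm1 level with INS37217 therefore rests on the probe set used. For Mcm7 the 2 h difference was -0.34 (95% interval -0.67 to -0.01, adjusted p = 1). Mki67 differed by -0.07, 0.03 and 0.14 at the 3 times, with intervals from -0.37 to 0.43, and Top2a by -0.02, -0.19 and 0.16, with intervals from -0.48 to 0.46. The test of whether a time change differed between solutions called no member for 24 h against 2 h, 7 d against 24 h or 7 d against 2 h, where 0.0484%, 0.0484% and 0.0807% of all genes were called, and no member had an unadjusted p under 0.05.

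Other genes of the cell cycle, another list of 75 with 67 measured, had 2 members higher and 1 lower by 24 h with saline and 1 and 1 with INS37217, and the medians were -0.05 and -0.04. These shares of the 67 lie below the 4.01% and 3.2% of all genes called with saline and the 3.62% and 3.89% with INS37217. With the block 10 were higher and 4 lower with saline, where 14.2% and 14% of all genes were. With INS37217 5 were higher and 6 lower, where 11% and 11.9% of all genes were. The 10 higher of the 67 lie near the share of all genes, and the other counts lie below it. Cdkn2c, the gene of the Cdk4 and Cdk6 inhibitor p18, rose by 0.79 with saline (SE 0.10, adjusted p = 9.7e-05) and by 0.69 with INS37217 (adjusted p = 0.00029), and fell again by 7 d, by 0.45 and 0.53 (adjusted p = 0.032 and 0.0065). The condensin gene Smc2 rose by 0.54 with saline (adjusted p = 0.032) and differed by 0.41 with INS37217 (adjusted p = 0.12, with the block 0.0047). Spc25, a kinetochore subunit gene by its annotation, went from a mean of 10.86 at 2 h to 7.66 at 24 h and 10.15 at 7 d with saline, and from 10.57 to 7.04 and 9.90 with INS37217. Those changes, -3.20 and -3.53 by 24 h (adjusted p = 2.8e-08 and 3.8e-09), exceeded that of any of the 47 members. Myc was lower at 7 d than at 2 h, by -0.71 and -0.83 (adjusted p = 0.0059 and 0.0016).

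Cdkn1a is a target of p53, so 12 measured p53 targets were set beside it. By 24 h 2 were lower with saline, Btg2 (-2.16, adjusted p = 2.6e-05) and Plk3 (-0.67, adjusted p = 0.012), and 1 with INS37217, Btg2 (-1.46, adjusted p = 0.00086). Of all genes 3.2% were called lower with saline and 3.89% with INS37217. None of the targets was called higher, where 4.01% and 3.62% of all genes were. The medians of the targets were -0.11 and -0.12. With the block targets passed in both directions. With saline 2 were higher, against 14.2% of all genes, and 4 lower, against 14%. With INS37217 2 were higher, against 11%, and 5 lower, against 11.9%. The higher ones were Trp53inp1 (0.56, adjusted p with the block 0.0012, and 0.85, 1.6e-05) and Phlda3 (0.38, 0.037, and 0.52, 0.0078). Among the lower ones Gadd45a differed by -1.07 with saline (adjusted p = 0.18 without the block, 9.4e-06 with it).

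Markers of several cell types also moved with time. The mean log2 level of 15 microglia and macrophage markers was 5.92 to 6.02 at 2 h, 6.24 to 6.34 at 24 h and 6.87 to 7.12 at 7 d after saline, and 5.89 to 6.02, 6.56 to 6.74 and 7.26 to 7.62 after INS37217. By 24 h 3 of the 15 were called higher with saline, where 4.01% of all genes were, and 7 with INS37217, where 3.62% were. At 7 d against 2 h the counts were 8, against 2.21% of all genes, and 13, against 2.9%. With the block they were 5 (14.2% of all genes) and 10 (11%) by 24 h, and 13 (10.5%) and 14 (8.77%) at 7 d against 2 h. This list was highest at 7 d, whereas the 12 fork genes were highest at 24 h: 6.38 to 6.42, 6.59 to 6.75 and 6.33 to 6.45 after saline, and 6.35 to 6.38, 6.62 to 6.63 and 6.35 to 6.43 after INS37217.

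**Figure D4:**
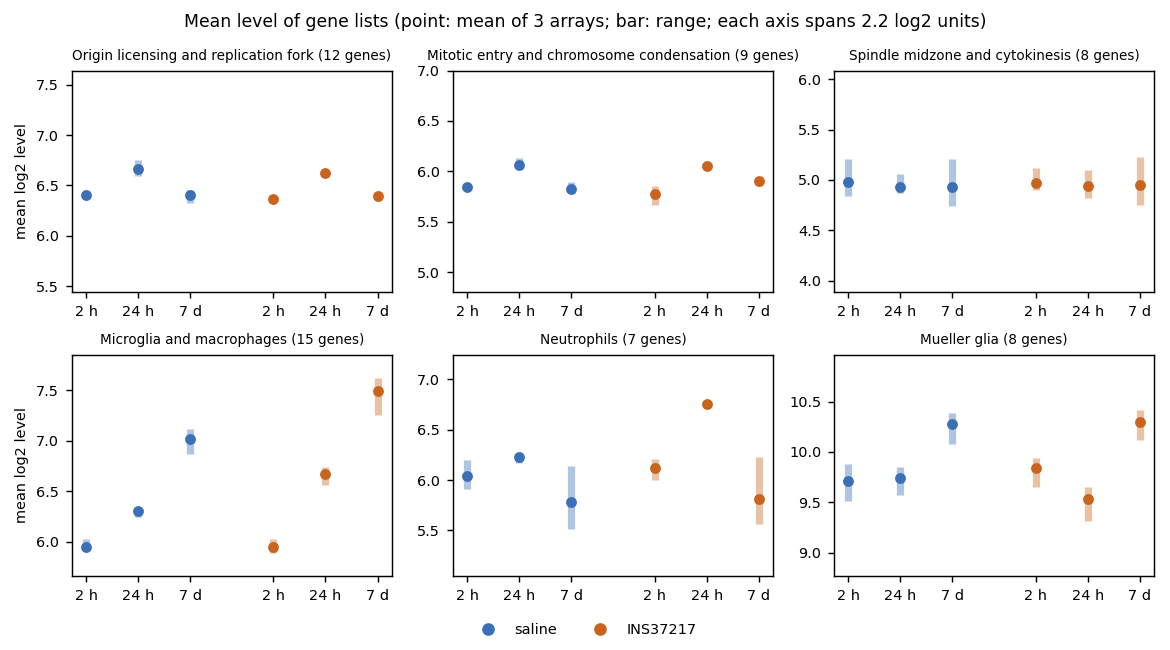
Mean log2 level of 6 gene lists (y axis, each spanning 2.2 units) by time and solution (x axis); points are means of 3 arrays and bars run from the lowest to the highest array. The fork list peaks at 24 h at 6.59 to 6.75 after saline, the midzone list stays between 4.74 and 5.23, and the microglia list is highest at 7 d.

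The mean of 7 neutrophil markers was 5.91 to 6.20, 6.17 to 6.27 and 5.51 to 6.14 at 2 h, 24 h and 7 d after saline, and 6.0 to 6.21, 6.72 to 6.78 and 5.56 to 6.23 after INS37217. By 24 h 2 of the 7 were called higher, S100a8 (1.12 with saline and 2.53 with INS37217) and S100a9 (1.33 and 2.93). The other 5 had differences below 0 in each solution, none called, and the list medians were -0.20 and -0.12, so the 24 h means rest on those 2 genes. Fibroblast markers, 6 in number, were at 6.02 to 6.21, 6.31 to 6.45 and 6.31 to 6.49 after saline and at 5.66 to 5.95, 6.37 to 6.51 and 7.30 to 7.62 after INS37217. Mueller glia markers, 8 in number, were at 9.51 to 9.88, 9.57 to 9.85 and 10.08 to 10.39 after saline. After INS37217 they were at 9.65 to 9.94, 9.31 to 9.65 and 10.12 to 10.42. Single markers of this list were called in both directions by 24 h, which its mean does not show. With saline Vim was higher (1.39), and Glul (-1.27) and Rlbp1 (-0.98) were lower. With INS37217 Vim was higher (1.1), and Glul (-1.08), Rlbp1 (-1.52) and Apoe (-0.85) were lower. The medians of the Mueller glia list were 0.16 with saline and -0.24 with INS37217. Endothelium and pericyte markers, 8 in number, were at 6.31 to 6.32, 6.41 to 6.50 and 6.53 to 6.60 after saline. After INS37217 they were at 6.22 to 6.46, 6.50 to 6.57 and 6.46 to 6.49. Of these, Kdr (0.75 and 0.73) and Cldn5 (0.56 and 0.72) were called higher by 24 h in both solutions. The medians of this list were 0.03 and 0.13, and 3 of the 8 with saline and 2 with INS37217 had differences below 0. Photoreceptor markers were lower at 24 h than at 2 h: 3 of 4 cone markers were called lower with saline and 4 with INS37217 (medians -0.74 and -1.03), and of 4 rod markers Nrl (-0.65 and -0.62) and Pde6b (-0.48 and -0.61) were, in both solutions. Cone marker means were 9.88 to 10.28, 9.13 to 9.41 and 9.72 to 10.18 after saline, and 10.0 to 10.25, 8.58 to 8.99 and 9.57 to 9.98 after INS37217. Markers of retinal progenitors, 3 in number, stayed between 4.81 and 5.05. Lens fibre markers were lower in the saline 2 h group (9.69 to 9.99) than on the other 15 arrays (10.59 to 11.16). Over all genes 4.01% were called higher and 3.2% lower by 24 h with saline, and 3.62% and 3.89% with INS37217. Whether these marker lists have a part in the cell cycle changes was not tested.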

How the data were processed

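Affymetrix arrays of 18 retinal RNA pools, 3 per group, were analysed. The deposited values are log2 expression made by the authors with RMA, per the submitters' processing notes; no version or settings are named there. RMA normalizes between arrays, so values are relative within the array. Of 22690 probe sets, 64 controls were left out, 20380 of the others had 1 gene, 691 several and 1555 none; 22626 were tested. All 18 arrays entered 1 limma fit (version 3.58.1, R 4.3.3) of 6 group means, with p-values adjusted by Benjamini-Hochberg over all probe sets and a threshold of 0.05. Residual degrees of freedom were 12 (prior 3.3). The p-values measure the spread between pools. Over all 45 pairs of same-numbered arrays, deviations from group means correlated at 0.426 to 0.921. Across groups, replicates 2 and 3 also correlated with each other (0.363 to 0.725), and replicate 1 with either at -0.847 to -0.501. These values set replicate 1 against replicates 2 and 3, and the titles give a number without stating a pairing. Blocked values or counts are given beside calls of the members' chosen probe sets that the block changes. For other probe sets, other genes and marker lists they are given in part. Script steps were tested on simulated data. Alternatives were the block, quantile normalization again, equal array medians, only probe sets above the median level, the mean of a gene's probe sets, only the arrays compared, and each array left out; keeping only replicates 2 and 3 was added after seeing the data. The members and lists were chosen with earlier results of these data known. The text names, with array values, members called in any comparison plus Ccnd1, Cdkn1a, Cdkn1b, Cdk4, Mki67 and Top2a, and up to 4 called genes of other lists. Ccnd2, Mcm4, Pcna and genes that passed with the block only were named after their values were seen. Upstream sequences are from RefSeq, build GRCm38.p6.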

Additional observations from a re-analysis of the deposited data

How the results depend on the processing

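No call of a named member reversed under any alternative run. In the order saline 24 h against 2 h, 7 d against 24 h and 7 d against 2 h, then the same for INS37217, the members called numbered 7, 2, 2, 8, 1 and 3. With the replicate block they numbered 14, 9, 9, 17, 5 and 8, and 1 for INS37217 against saline at 2 h; it left the other 5 counts at 0 and kept all 23 calls. With replicates 2 and 3 only they numbered 15, 7, 8, 15, 5 and 9. Quantile normalization again gave 4 for saline and 6 for INS37217 at 7 d against 2 h. Restricting to probe sets above the median level, which left 16 members, gave 1 for saline 7 d against 24 h, and 5 and 0 for INS37217 at 24 h against 2 h and 7 d against 24 h. The mean of a gene's probe sets gave 3 for INS37217 7 d against 24 h and ended 6 of 23 calls. Fitting only the arrays compared gave 0 for saline 7 d against 24 h, and 4, 0 and 1 for the INS37217 comparisons, and ended 10 of 23 calls; it uses fewer arrays. Leaving out 1 array in turn gave ranges of 3 to 8, 1 to 3, 2 to 5, 3 to 10, 0 to 1 and 2 to 4, and 0 to 0 for every drug and drug-by-time comparison; 357 of 414 single results kept their call and 57 lost it. The cause of these moves was not tested. Equal array medians moved no count beyond 1.5 times. Precision is limited by 3 arrays per group, and values near the low end of the scale may hide changes.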
